A study of Arabidopsis thaliana with 12 samples.

Results

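The miRNAs described here are miR169a to miR169g of Arabidopsis thaliana, the members of the miR169 family that lie outside the miR169h to miR169n group. They were taken by name, either arm of the hairpin included, from a deposited table of 390 miRNA names. The names found were 10 (ath-miR169a-5p, ath-miR169a-3p, ath-miR169b-5p, ath-miR169b-3p, ath-miR169c, ath-miR169d, ath-miR169e, ath-miR169f-5p, ath-miR169f-3p and ath-miR169g-5p, where ath stands for the species), and they stand for 6 distinct mature sequences. Small RNA was sequenced from shoots of 10-day-old seedlings, grown for 5 days on standard nutrients and for 5 more days in the treatment phase, in 4 groups of 3 libraries each: hasty KO at low nitrogen (low N), hasty KO control, Col-0 wild type (WT) at low N, and WT control. The labels name neither the hasty allele nor the medium of the control plants, and the treatment text attached to every library describes low N only, so control is used as the treatment label gives it. The libraries are called biological replicates, with no word on separate plates or pools. A p-value thus sets a difference against the spread between these libraries, whatever its source. The files hold no mRNA, so neither the loss of HASTY transcript nor the shoot origin of the RNA could be checked.

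miR169 guides cleavage of mRNAs for NF-YA proteins, the subunit of the nuclear factor Y complex that recognises the CCAAT box. In Arabidopsis the family is known to decline when nitrogen is short, and plants that overexpress miR169a are known to handle nitrogen shortage poorly. HASTY is the plant relative of exportin-5, and hasty mutants are known for reduced amounts of many, but not all, miRNAs. A miRNA hairpin gives a duplex of a 5p and a 3p strand, and in miR169 the 5p strand is the one that pairs with NF-YA mRNAs.

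The 3 sequences of the 5p arm are shown because the results below divide along them. All mature sequences were read from RefSeq's annotation of TAIR10.1, where all 10 names matched. Capitals mark the seed, bases 2 to 8.
miR169a-5p: cAGCCAAGgaugacuugccga
miR169b-5p and miR169c: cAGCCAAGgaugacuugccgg
miR169d, miR169e, miR169f-5p and miR169g-5p: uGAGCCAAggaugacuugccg
miR169h to miR169n: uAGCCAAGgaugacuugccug
miR169a-3p: gGCAAGUUguccuuggcuac
miR169b-3p: gGCAAGUUguccuucggcuaca
miR169f-3p: gCAAGUUGaccuuggcucugc

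Counting positions from 1 at the 5′ end of miR169a-5p, miR169b-5p and miR169c differ from miR169a-5p by A21G. The shared sequence of miR169d to miR169g starts 1 base further upstream and ends 1 base earlier, and over the overlap it differs by C1G. miR169h to miR169n differ from miR169a-5p by C1U, G20U and A21G. The seed AGCCAAG is thus shared by miR169a-5p, miR169b-5p, miR169c and miR169h to miR169n, and miR169d to miR169g carry GAGCCAA, the same bases shifted by 1.

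In TAIR10.1, miR169a-5p lies at chr3:4359182-4359202 and miR169a-3p at chr3:4359011-4359030, both on the minus strand. The annotated miR169a precursor overlaps the edge of the protein-coding gene AT3G13404 on the same strand by 14 bases, outside both mature arms, and no other precursor of the members overlaps an annotated gene. miR169b-5p lies at chr5:8527511-8527531 and miR169b-3p at chr5:8527592-8527613, on the plus strand. miR169c lies at chr5:15870868-15870888 on the minus strand. miR169d, at chr1:20039556-20039576 on the minus strand, and miR169e, at chr1:20041586-20041606 on the plus strand, are neighbours. miR169f-5p lies at chr3:4805799-4805819, miR169f-3p at chr3:4805713-4805733 and miR169g-5p at chr4:11483094-11483114, all on the minus strand.

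The stretch between the arms of the miR169b hairpin is 60 nt long, against 65 nt in miR169f and 151 nt in miR169a. The miR169b hairpin is printed from arm to arm (103 nt, capitals for the mature arms), since both of its arms were listed at 0 in the same libraries.
miR169b hairpin: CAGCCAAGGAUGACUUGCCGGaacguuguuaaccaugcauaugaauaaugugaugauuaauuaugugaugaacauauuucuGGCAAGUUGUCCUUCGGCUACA

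To show how the 5p sequences relate to their known targets, each was slid along the annotated transcripts of the 10 NF-YA genes, and the window with the lowest score was kept (1 for a mismatch, 0.5 for a G:U pair). In 8 of the 10 genes (NF-YA1, NF-YA2, NF-YA3, NF-YA5, NF-YA6, NF-YA8, NF-YA9 and NF-YA10) the best window lay in the 3′ untranslated region for each of the 5p sequences. In NF-YA4 and NF-YA7 the best windows lay in the coding region or the 5′ untranslated region, with 4 or more mismatches for every sequence. The sites below are printed because they pair unequally or equally with the sequences; capitals mark bases that form no Watson-Crick pair with the miRNA named.
NF-YA5 with miR169a-5p: AcggGaagtcatccttggctA
NF-YA1 with miR169b-5p and miR169c: ccggcaaAtcatTcttggctT
NF-YA2 with miR169d to miR169g: AggcaaAtcatcTttggctca

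The NF-YA5 site (chr1:20217494-20217514, minus strand) had 3 mismatches with miR169a-5p, 3 with miR169b-5p and miR169c, and 3 with miR169d to miR169g, whose window is shifted by 1 base. The NF-YA1 site (chr5:4051058-4051078, minus strand) had 2 mismatches and 1 G:U pair with miR169b-5p and miR169c, and 3 mismatches and 1 G:U pair with miR169a-5p. The NF-YA2 site (chr3:1676806-1676826, minus strand) had 2 mismatches and 1 G:U pair with miR169d to miR169g, against 4 mismatches and 1 G:U pair with miR169a-5p. These pairings describe letters in the reference, and no NF-YA mRNA was measured.

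The table held 1292752 to 3226269 counts per library, the lowest total being that of replicate 3 of hasty at low N. Of the 390 names, 273 passed the filter on low counts, among them all 10 members. Levels below are CPM, counts scaled to a common library size after TMM normalisation, and a change was called when its adjusted p from edgeR's quasi-likelihood test was under 0.05. Since counts are relative and tissue was taken whole, fewer cells holding a miRNA and less of it per cell cannot be told apart. Both arms of miR169b were listed at 0 in replicate 3 of WT at low N and in replicate 3 of WT control. They were the only names of the 390 that were at 0 in both of these libraries and above 0 in the other 10. The changes and arm ratios of miR169b are therefore given with and without these libraries, while its overlap between groups and its most similar profiles include them.

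ath-miR169a-5p was the most abundant 5p name among the members in hasty, at 110, 91.1 and 96.2 CPM in hasty at low N and 108, 107 and 103 CPM in hasty control. In WT it stood at 35.8, 48.0 and 49.6 CPM at low N and at 56.3, 62.3 and 58.4 CPM in control. Every hasty library lay above every WT library, and the 6 hasty values spanned a narrow range. The mean was 99.1 ± 9.65 CPM in hasty at low N and 106 ± 2.28 CPM in hasty control, against 44.5 ± 7.57 CPM in WT at low N and 59.0 ± 3.06 CPM in WT control (SD, n = 3 each).

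The sequence shared by miR169d, miR169e, miR169f-5p and miR169g-5p ran the other way in control plants. ath-miR169d was at 49.97, 60.8 and 38.3 CPM in hasty at low N and 41.0, 30.0 and 25.7 CPM in hasty control, against 60.5, 79.0 and 69.2 CPM in WT at low N and 71.2, 66.9 and 75.9 CPM in WT control. The hasty control libraries all lay below the WT control libraries, with a gap wider than either group's range. At low N the highest hasty library lay just above the lowest WT library, so the genotypes overlapped. miR169e had the same count as miR169d in every library, and the 4 names of this sequence differed by at most 8 counts in any library. They are 1 measurement written under 4 names, and cannot say which of the 4 loci the reads came from.

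ath-miR169c lies at its own locus on chromosome 5 and has the miR169b-5p sequence. ath-miR169c was at 29.6, 24.9 and 13.0 CPM in hasty at low N and 37.3, 46.3 and 41.8 CPM in hasty control. In WT it was at 11.9, 9.51 and 13.2 CPM at low N and at 18.8, 21.9 and 27.8 CPM in control. Hasty control held the 3 highest values, and WT at low N held 2 of the 3 lowest. Replicate 3 of hasty at low N, the shallowest library with 18 counts of miR169c, fell inside the range of WT at low N.

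ath-miR169b-5p was at 34.2, 31.8 and 21.0 CPM in hasty at low N and 44.8, 52.1 and 47.7 CPM in hasty control. In WT it was at 15.2 and 17.5 CPM in replicates 1 and 2 at low N and at 24.4 and 29.9 CPM in replicates 1 and 2 of control. As for miR169c, whose sequence it shares, hasty control was highest and WT at low N lowest, and the ratio of miR169b-5p to miR169c counts was 1.13 to 1.84 in the 10 libraries with both. In replicate 3 of WT at low N, where miR169b-5p was listed at 0, miR169c had 29 counts. In replicate 3 of WT control it had 98.

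**Figure D1:**
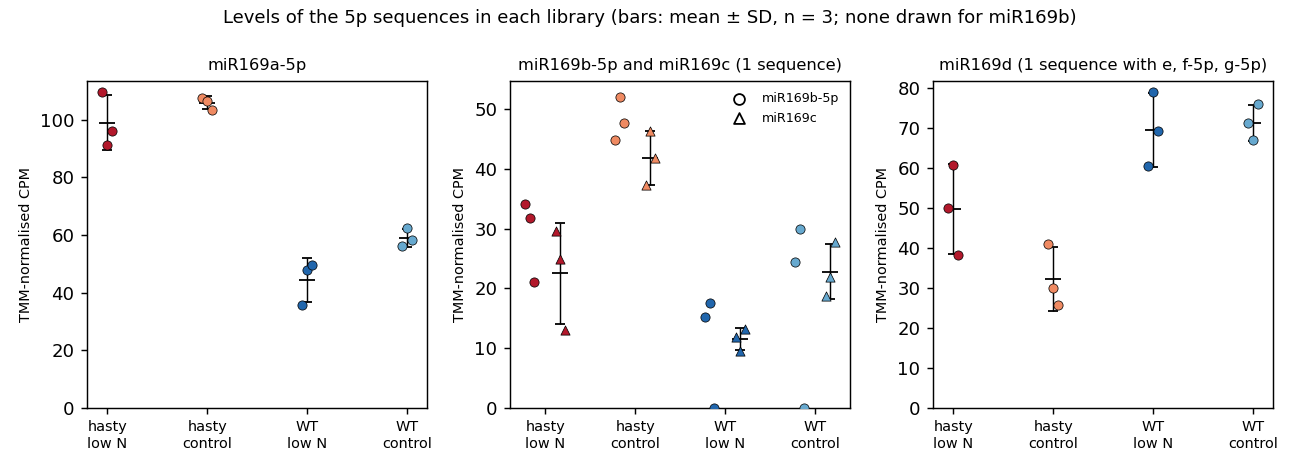
TMM-normalised CPM (vertical axis) of the 5p sequences in the 12 libraries, by group; points are libraries and bars are mean ± SD (n = 3), left out for miR169b-5p. All hasty points of miR169a-5p lie above all WT points, the hasty control points of miR169d lie below those of WT control, and miR169b-5p is at 0 in 1 library of each WT group.

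The 3p strands, the partners of the 5p strands in the duplex, differed in how much of them was seen. ath-miR169b-3p averaged more than its 5p partner over the 12 libraries (57.0 CPM against 26.5 CPM) and without both WT libraries of replicate 3 (68.4 CPM against 31.8 CPM, 10 libraries). It was at 38.8, 55.2 and 62.9 CPM in hasty at low N and 77.9, 73.4 and 132 CPM in hasty control, against 58.8 and 61.5 CPM in replicates 1 and 2 of WT at low N and 56.3 and 67.5 CPM in replicates 1 and 2 of WT control. The 3 hasty control values were the highest of all, and those of hasty at low N overlapped the WT values above 0.

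miR169a-3p and miR169f-3p were near the lower limit of the table. ath-miR169a-3p had 5, 9 and 11 counts in hasty at low N and 27, 20 and 23 in hasty control, against 32, 5 and 17 in WT at low N and 32, 30 and 24 in WT control. ath-miR169f-3p had 1, 6 and 5 counts in hasty at low N and 8, 8 and 8 in hasty control, against 24, 13 and 14 in WT at low N and 7, 3 and 12 in WT control. Only in WT at low N did all 3 libraries of miR169f-3p hold more than 12 counts.

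**Figure D2:**
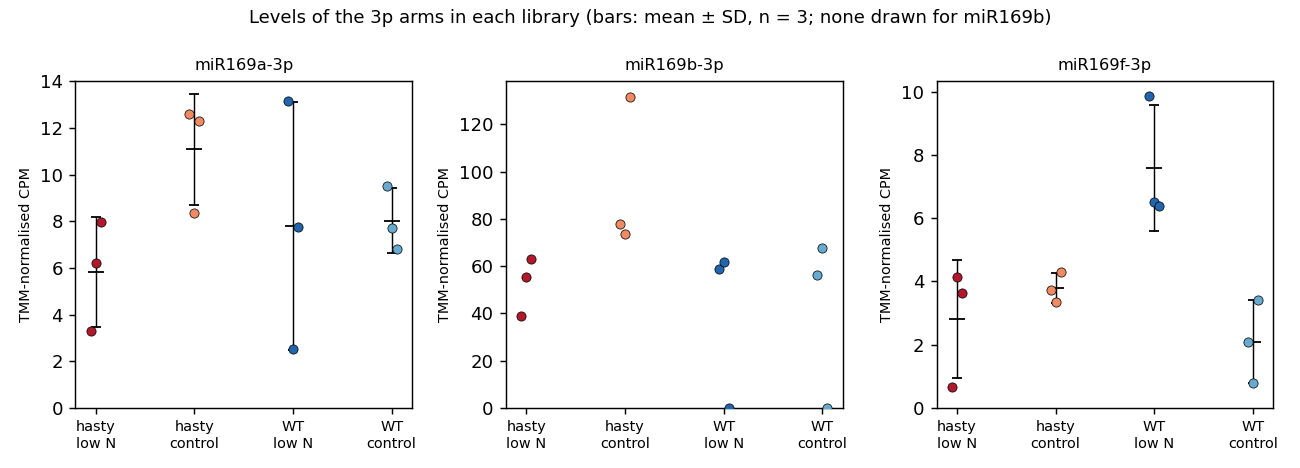
TMM-normalised CPM (vertical axis) of the 3p strands in the 12 libraries, by group; points are libraries and bars are mean ± SD (n = 3), left out for miR169b-3p. miR169b-3p is at 0 in 1 library of each WT group, and miR169a-3p and miR169f-3p stay under 14 CPM throughout.

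The comparison of hasty with WT asks how the miRNAs stand when HASTY is lost. In control plants miR169a-5p rose 1.79-fold in hasty (log2 change 0.84 ± 0.16 SE, adjusted p = 0.0021, edgeR quasi-likelihood, n = 3 each). The miR169d to miR169g sequence fell by 1.11 to 1.15 on the log2 scale, 2.16 to 2.21-fold, with adjusted p of 0.0035 to 0.0080 for its 4 names. miR169c was 1.83-fold higher in hasty with no overlap between the groups, but its adjusted p was 0.059. Of the 10 members, 1 was called higher and 4 were called lower, and these 5 are 2 sequences. Over all 273 names tested, 45.8% were called, 18.7% higher and 27.1% lower, so that a share of calls like that of the members was also seen in the whole table.

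miR169b-5p had a log2 change of 1.41 ± 1.63 (SE, adjusted p = 0.54) between hasty control and WT control with all libraries in the fit. Without both WT libraries of replicate 3 it was 0.83 ± 0.27 and was called (adjusted p = 0.043), beside 1.04 (adjusted p = 0.059) for miR169c in the same fit. miR169b-3p changed by 1.19 (adjusted p = 0.63) with all libraries and by 0.61 (adjusted p = 0.17) without them. miR169a-3p (0.46, adjusted p = 0.56) and miR169f-3p (0.84, adjusted p = 0.36) were not called, and their groups overlapped. The libraries of hasty control and WT control did not overlap for 8 of the 10 members, against 59.7% of all names tested. These 8 names include the 4 names of the miR169d to miR169g sequence, and miR169b-5p and miR169c, which share 1 sequence.

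At low N the same comparison called miR169a-5p, 2.23-fold higher in hasty (log2 change 1.15 ± 0.16 SE, adjusted p = 0.00036, n = 3 each). None of the other 9 members was called, and over all names 34.8% were, 11.4% higher and 23.4% lower. The libraries did not overlap for 3 of the 10 members, against 50.9% of all names. miR169c had a log2 change of 0.96 with an adjusted p of 0.053. miR169d was lower in hasty by a log2 change of -0.48 (adjusted p = 0.14). Without both WT libraries of replicate 3, miR169b-5p had 0.82 (adjusted p = 0.055), against 1.41 (adjusted p = 0.58) with them, and miR169b-3p had -0.20 (adjusted p = 0.73), against 0.38 (adjusted p = 0.93) with them. miR169f-3p, with 1 to 6 counts in hasty and 13 to 24 in WT, had -1.42 (adjusted p = 0.12) although the groups did not overlap. DESeq2 called miR169c in both of these comparisons, with 1.00 (adjusted p = 0.00037) in control and 1.10 (adjusted p = 0.0016) at low N. In edgeR it passed without replicate 3 of hasty at low N (0.75, adjusted p = 0.027, in control and 1.21, adjusted p = 0.0061, at low N) and, at low N, without replicate 2 of hasty control (1.14, adjusted p = 0.029). Over the 12 runs with a library left out, its edgeR adjusted p reached at most 0.20 in control and 0.16 at low N.

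The comparison of low N with control asks how the same miRNAs respond to nitrogen. In WT none of the 10 members was called by edgeR, while 32.2% of all names were, 17.2% higher and 15.0% lower; 3 of the 10 had no overlap, against 45.8% of all names. At an unadjusted p under 0.05 there were 3 (miR169a-5p, miR169c and miR169f-3p), and DESeq2 called the same 3. The shares over all names at these settings are not given here. miR169c had a log2 change of -0.98 ± 0.33 (SE, adjusted p = 0.051), with its 3 low N libraries below its 3 control libraries. miR169a-5p had -0.41 ± 0.15 (adjusted p = 0.075), also without overlap. miR169f-3p had 1.84 ± 0.66 (adjusted p = 0.060), from 24, 13 and 14 counts at low N against 7, 3 and 12 in control. miR169d stayed near 0, at -0.04 ± 0.24 (adjusted p = 0.98). miR169b-5p had -0.73 both with all libraries (adjusted p = 0.88) and without both WT libraries of replicate 3 (adjusted p = 0.11), and miR169b-3p had -0.04 in both fits. Without 1 library several of these passed. miR169a-5p did so without replicate 3 of hasty at low N (adjusted p = 0.029), replicate 2 of hasty control (0.040) or replicate 3 of WT at low N (0.045). miR169c did so without replicate 1 (0.045) or 3 (0.0060) of hasty at low N, replicate 2 of hasty control (0.040) or replicate 1 of WT control (0.036), and miR169f-3p without replicate 1 of hasty at low N (0.025) or replicate 3 of WT control (0.040). Over the 12 such runs the edgeR adjusted p also rose, to at most 0.20 for miR169a-5p, 0.15 for miR169c and 0.16 for miR169f-3p.

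In hasty none of the 10 members was called for low N against control either, while 23.8% of all names were, 8.79% higher and 15.0% lower; 4 of the 10 had no overlap, against 42.5% of all names. At an unadjusted p under 0.05 there were 4 (miR169c, miR169d, miR169e and miR169f-5p), and DESeq2 called 5, these and miR169g-5p. The 4 names are 2 sequences, and miR169g-5p shares the sequence of miR169d. The shares over all names at these settings are not given here, so an excess among the members is not shown. miR169c had a log2 change of -0.89 ± 0.34 (SE, adjusted p = 0.096), near its value in WT, and miR169d had 0.62 ± 0.24 (adjusted p = 0.10), in the other direction. miR169a-5p had -0.10 ± 0.15 (adjusted p = 0.76), with overlapping libraries. miR169b-5p had -0.73 with all libraries (adjusted p = 0.86) and without both WT libraries of replicate 3 (adjusted p = 0.067), and miR169b-3p had -0.85 in both fits (adjusted p = 0.86 and 0.071). miR169d and miR169e passed without replicate 3 of hasty at low N (0.72, adjusted p = 0.049) or without replicate 1 of hasty control (0.83, adjusted p = 0.043), and miR169f-5p without replicate 3 of hasty at low N (0.75, adjusted p = 0.042). Over the 12 such runs the edgeR adjusted p reached at most 0.28 for miR169d and miR169e and 0.32 for miR169f-5p.

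**Figure D3:**
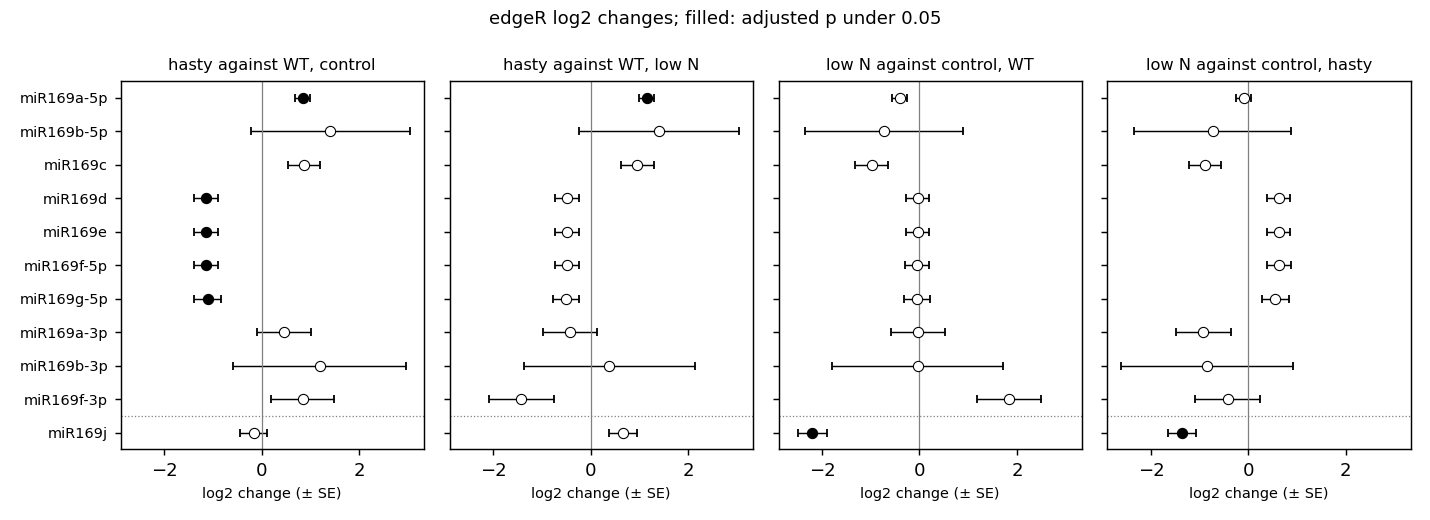
edgeR log2 changes with their SE (horizontal axis) of the 10 members and of miR169j, below the dotted line, in 4 comparisons; filled points have an adjusted p under 0.05. miR169a-5p is filled in both comparisons of hasty with WT, miR169d to miR169g in control plants only, and of low N against control only miR169j is filled.

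Whether the response to nitrogen differed between the genotypes was tested as an interaction. None of the 10 members was called, and 1.83% of all names were, 0.366% higher and 1.47% lower. At an unadjusted p under 0.05 there was 1, miR169f-3p (-2.27, adjusted p = 0.40), and DESeq2 called none. The interaction was 0.66 ± 0.33 (SE, adjusted p = 0.48) for miR169d, 0.31 ± 0.22 (adjusted p = 0.59) for miR169a-5p and 0.09 ± 0.46 (adjusted p = 1.00) for miR169c. The lower level of miR169d in hasty is therefore not shown to differ between control and low N.

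The other group of the family, miR169h to miR169n, was lower at low N in both genotypes. All 7 names were called lower, against 15.0% of all 273 names in each genotype. In WT, miR169h, miR169i and miR169l changed by -2.80 to -3.73 on the log2 scale, and the other names by -2.13 to -2.20. In hasty all lay at -1.30 to -1.43. The 7 names share 1 mature sequence, so their calls are not separate results, and yet they did not hold 1 count. In WT control, miR169h had 600 to 1000 counts more than miR169k. In hasty the widest spread of the 7 names was 251 to 269 counts, in replicate 2 of control. miR169h had a log2 change of -3.73 in WT, against -2.20 for miR169j. In the interaction, miR169h was the only name called higher (2.42, edgeR adjusted p = 0.014), and miR169j was not called (0.84, edgeR adjusted p = 0.45). In hasty against WT in control, miR169h, miR169i and miR169l were called lower (-1.74, -1.83 and -1.86), and miR169j was not (-0.17, adjusted p = 0.66). The origin of these offsets was not tested, and miR169j, whose count equalled that of miR169n in every library, is used to represent the group. miR169j was at 30.2, 38.0 and 65.8 CPM in hasty at low N and 129, 112 and 105 CPM in hasty control, against 21.0, 30.0 and 33.2 CPM in WT at low N and 136, 120 and 131 CPM in WT control.

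Ratios of names within a library need no normalisation between libraries, and 12 of them were tested by an exact permutation of libraries within the other factor (two-sided, 400 assignments, smallest possible p 0.005, Benjamini-Hochberg over the 12). The pairs were chosen after the levels had been seen, and the p-values do not allow for that choice. Ratios that share a name are not independent of each other. The log2 ratio of miR169a-5p to miR169d was 1.13, 0.58 and 1.32 in hasty at low N and 1.39, 1.82 and 1.996 in hasty control, against -0.75, -0.72 and -0.48 in WT at low N and -0.34, -0.10 and -0.38 in WT control. It was thus above 0 in every hasty library and below 0 in every WT library. Hasty exceeded WT by 1.83 on the log2 scale (1.66 at low N and 2.01 in control, exact permutation p = 0.005, adjusted p = 0.0086). Low N was below control by a difference of -0.55, -0.72 in hasty and -0.38 in WT (exact permutation p = 0.005, adjusted p = 0.0086).

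The ratio of miR169c to miR169d followed the same order, at -1.19 ± 0.40 in hasty at low N, 0.39 ± 0.46 in hasty control, -2.57 ± 0.39 in WT at low N and -1.66 ± 0.24 in WT control (log2, SD, n = 3 each). Hasty exceeded WT by 1.72 and low N differed from control by -1.25, both with an exact permutation p of 0.005 (adjusted p = 0.0086). The ratio of miR169a-5p to miR169c, which differ by A21G only, was 0.12 higher in hasty than in WT (exact permutation p = 0.62). It was 0.70 higher at low N than in control (exact permutation p = 0.010, adjusted p = 0.015). miR169a-5p and miR169c were thus not shown to differ in their response to the loss of HASTY, and their ratio moved towards miR169a-5p at low N.

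**Figure D4:**
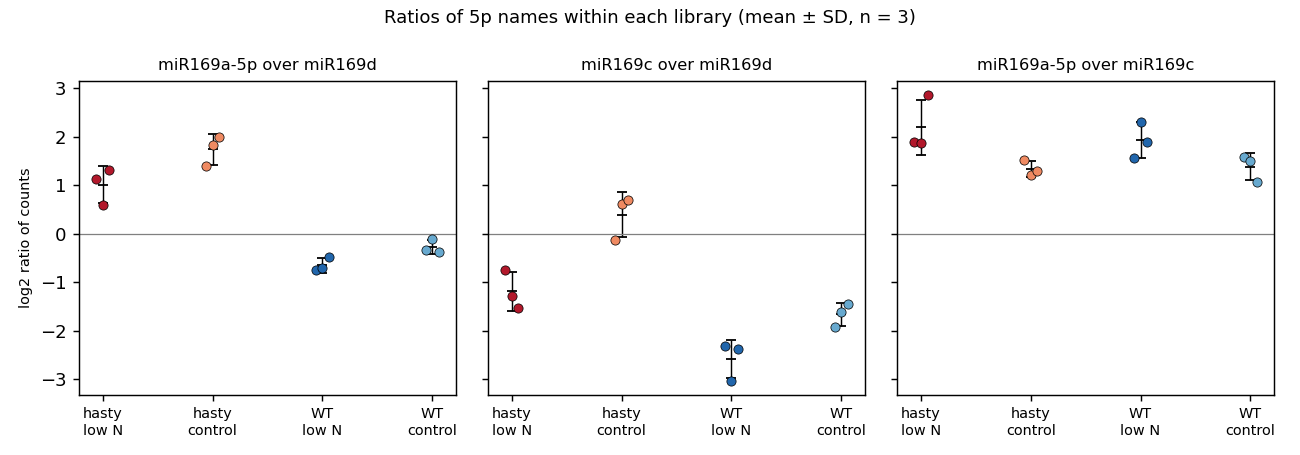
Log2 ratio of counts (vertical axis) of 3 pairs of 5p names in each of the 12 libraries, by group; points are libraries and bars are mean ± SD (n = 3). miR169a-5p over miR169d lies above 0 in the 6 hasty libraries and below 0 in the 6 WT libraries, and miR169a-5p over miR169c has no such split by genotype.

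Relative to miR169j, miR169a-5p and miR169d were higher at low N. miR169j itself fell at low N, with a log2 change of -2.20 in WT and -1.37 in hasty. miR169a-5p had -0.41 and -0.10, and miR169d had -0.04 and 0.62, none of them called. The log2 ratio to miR169j was higher at low N than in control by 1.57 for miR169a-5p and by 2.12 for miR169d, each with an exact permutation p of 0.005 (adjusted p = 0.0086). For miR169c it was higher by 0.87 (exact permutation p = 0.055, adjusted p = 0.066). In hasty against WT, miR169a-5p over miR169j was higher by 0.78 (exact permutation p = 0.020, adjusted p = 0.027) and miR169d over miR169j differed by -1.06 (exact permutation p = 0.005, adjusted p = 0.0086). miR169c over miR169j was 0.66 higher (exact permutation p = 0.115, adjusted p = 0.13). The genotype difference of miR169d depended on the name it was set against. With miR169h, miR169i or miR169l in place of miR169j it was -0.28, 0.05 and 0.34 (exact permutation p of 0.57, 0.91 and 0.34), and in control plants alone it was 0.57, 0.66 and 0.70. The differences of miR169a-5p (1.56 to 2.17 for genotype) and the higher ratios of miR169a-5p and miR169d at low N kept their direction with these names.

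With 1 name for each of the 4 sequences of the 5p arm, the make-up of the family can be given, with miR169j as the name chosen for miR169h to miR169n, as shares of their summed counts, which were 295 to 1053 per library. miR169a-5p made up 45.8 ± 3.83% in hasty at low N, 36.0 ± 1.64% in hasty control, 28.9 ± 1.16% in WT at low N and 20.9 ± 1.78% in WT control (SD, n = 3 each). miR169d made up 23.0 ± 5.17% in hasty at low N, 10.8 ± 1.95% in hasty control, 45.4 ± 3.05% in WT at low N and 25.2 ± 0.59% in WT control. So at low N, with miR169j as the chosen name, the largest share was that of miR169a-5p in hasty and that of miR169d in WT. Other names of the miR169h to miR169n sequence would change the order in some libraries. In replicates 1 and 2 of WT at low N, miR169l had 151 and 160 counts, above miR169d at 147 and 158. In replicates 2 and 3 of hasty control, miR169h had 251 and 182 counts, below miR169a-5p at 256 and 193. A share is relative to the other names: the mean level of miR169d in WT was 69.6 CPM at low N and 71.4 CPM in control. miR169c stayed the smallest in every group except hasty control, at 10.4 ± 3.83% in hasty at low N, 14.2 ± 2.07% in hasty control, 7.64 ± 1.79% in WT at low N and 8.06 ± 1.41% in WT control. miR169j made up 20.8 ± 8.95% in hasty at low N, 39.0 ± 1.65% in hasty control, 18.1 ± 1.94% in WT at low N and 45.8 ± 2.18% in WT control.

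**Figure D5:**
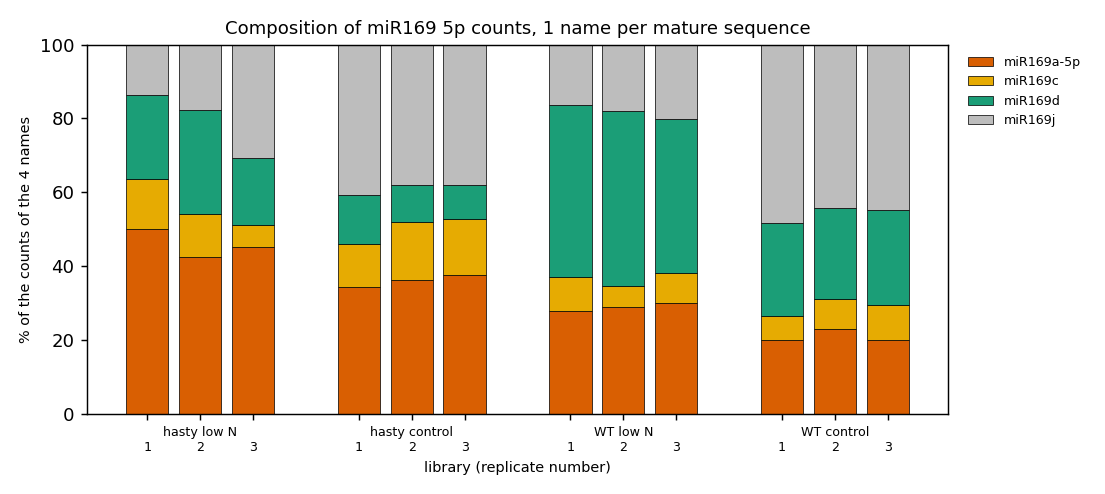
Share of the counts (vertical axis, percent) of miR169a-5p, miR169c, miR169d and miR169j in each of the 12 libraries, 1 name per mature sequence of the 5p arm. With miR169j standing for miR169h to miR169n, miR169a-5p takes the largest share in the hasty low N libraries and miR169d in the WT low N libraries. In all control libraries miR169j takes the largest share. With another name of its sequence the order changes in some libraries.

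The summed level of miR169a-5p, miR169c and miR169d was 171 ± 21.4 CPM in hasty at low N, 180 ± 8.05 CPM in hasty control, 126 ± 15.2 CPM in WT at low N and 153 ± 8.12 CPM in WT control (SD, n = 3 each). The sum was lowest in WT at low N, and no test was made on it.

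The balance of the arms was followed as the log2 ratio of 5p to 3p counts. For miR169a it was 4.09 in hasty at low N, 3.25 in hasty control, 2.74 in WT at low N and 2.87 in WT control. For miR169b the 3p arm was the higher one in all 10 libraries with counts, at -0.18, -0.79 and -1.57 in hasty at low N and -0.80, -0.49 and -1.46 in hasty control, against -1.94 and -1.80 in WT at low N and -1.20 and -1.17 in WT control. Its ratio cannot be measured in the WT libraries of replicate 3, where both arms are listed at 0, and without them it differed by 0.64 between hasty and WT (exact permutation p = 0.11) and by -0.31 between low N and control (exact permutation p = 0.37). None of the exact permutation tests of the arm ratios of miR169a and miR169f passed either (adjusted p of 0.60 to 0.76, over 6 tests that include miR169b with all libraries). The miR169a difference between hasty and WT was 0.87 (exact permutation p = 0.10). The 5p sequence of miR169b is also that of miR169c, so its 5p reads may come from 2 loci. Its ratio is therefore not the arm balance of 1 hairpin alone. For miR169f the 5p reads belong to 4 loci and the 3p reads to 1. Its ratio differed between hasty and WT by 1.06 at low N and by -2.22 in control, with -0.58 over both (exact permutation p = 0.45).

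Other miRNA families were listed because earlier work reported them as lower under low nitrogen (miR395, miR397, miR398, miR399, miR408, miR827 and miR857). They gave 22 names that could be tested, counted here as 15 sequences with 1 name each. At low N in WT, 7 of the 15 were called lower and 1 higher, against 15.0% lower and 17.2% higher of all 273 names, with a median log2 change of -0.49 against 0.06 over all names tested. In hasty 9 of the 15 were called lower and none higher, against 15.0% lower and 8.79% higher of all names, with a median of -1.23 against -0.05. By name, the 10 members had a median of -0.04 in WT and -0.26 in hasty. Unlike the 15, they were not counted once per sequence, and miR169d to miR169g entered under 4 names. With 1 name per sequence, WT had -0.04 (miR169a-3p), -0.41 (miR169a-5p), -0.04 (miR169b-3p), -0.98 (miR169c), -0.04 (miR169d) and 1.84 (miR169f-3p). In the same order, hasty had -0.92, -0.10, -0.85, -0.89, 0.62 and -0.43.

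For each 5p sequence and the most abundant 3p strand, the names outside the family with the most similar profile over the 12 libraries are given as a description. The measure was Pearson's r of log2(CPM + 1), over 86 known names above 0 in all libraries, which share the libraries and their depths. For miR169a-5p these were miR393b-3p (r = 0.87), miR396a-5p (0.82) and miR157a-5p (0.80). For miR169c they were miR399c-5p (0.82), miR398b-5p (0.75) and miR5654-5p (0.67). For miR169d they were miR164a, miR159c and miR403-3p, each at 0.85. For miR169b-5p (0.50 to 0.55) and miR169b-3p (0.47 to 0.49) no name came close, and both include the libraries listed at 0.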

How the data were processed

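Small RNA libraries were made by adaptor ligation and PCR, per the labels' protocols, with no molecular identifiers. The authors deposited 1 table of counts per miRNA name and library. Its values are whole numbers with unequal totals, so they were tested as raw counts although the table's name speaks of TPM. The submitters' processing notes name mm10, a mouse assembly that cannot be the reference for these miRNAs; neither the aligner, nor the miRNA release, nor how reads of several loci were handled is given in the sources used here. These table totals are not the sequencing depth. Columns of per-sample values left unused numbered 0.

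Names with low counts were dropped (edgeR's filterByExpr), TMM factors were computed, and 1 quasi-likelihood model was fitted to the 4 groups (edgeR 4.0.16, R 4.3.3, 8 residual degrees of freedom), with 5 contrasts, each Benjamini-Hochberg adjusted over 273 names. The SE is the log2 change over the square root of F, so it restates the test. DESeq2 1.42.0, other scalings, filters and pseudocounts, names of 1 sequence counted once, a replicate block, and leaving out each of the 12 libraries were the alternatives; leaving out both WT libraries of replicate 3, known names only, other names in place of miR169j and 2 alternatives on ratios were added after seeing the data. Ratios used counts with a pseudocount of 0.5. With 3 against 3 libraries an exact two-sided test cannot go below 0.1, so ratios were permuted within strata. The fit was tested on simulated counts.

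The text names all 10 members, miR169j and miR169h as examples of their group, and the 3 most similar names for each chosen sequence. Members and lists were chosen with earlier results of these data known. Sequences and coordinates are from RefSeq's TAIR10.1, matched by miRNA name.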

Additional observations from a re-analysis of the deposited data

How the results depend on the processing

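Over 1129 changes of single members under an alternative, 1033 kept their direction and side of the threshold, 55 passed it where they had not, 0 lost a call and 41 changed sign, all between values that were never called. The calls of miR169a-5p and of miR169d to miR169g held in every alternative run. The main fit did not pair libraries by replicate number. Deviations of same-numbered libraries correlated at -0.31 to 0.40 (median 0.048, 18 pairs, 7 over 0.1). Those of different-numbered libraries correlated at -0.36 to 0.24 (median -0.0027, 36 pairs, 9 over 0.1). Whether the numbers pair the libraries was not tested. With the replicate block the members called numbered 5 and 1 for hasty against WT in control and at low N and 0 in the other contrasts, as without it, and 3 names instead of 5 were called for the interaction.

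Members called for hasty against WT at low N (1) were 2 with median-of-ratios factors, library totals, no filter, known names only or DESeq2, 3 with the highest of the names of a sequence, and 1 to 2 with a library left out; DESeq2 called 143 names in all, against 95. Members called for low N in WT (0) were 1 with median-of-ratios factors or the mean of the names of a sequence. Comparing only the 2 groups also gave 1. They were 2 with library totals, no filter or known names only, and 3 with the highest of the names or DESeq2. With a library left out they were 0 to 2. In the run with the highest of the names, miR169b-5p and miR169c were 1 merged row counted under both names, here and for hasty against WT at low N. All names called were 56 (mean) and 57 (highest) after names of 1 sequence were merged, against 88 of the 273 unmerged names. Members called for low N in hasty (0) were 1 with library totals, 2 with median-of-ratios factors, 3 with known names only, 5 with DESeq2 and 0 to 3 with a library left out. Names called for the interaction (5) were 3 with the mean of the names, 14 without both WT libraries of replicate 3, 25 with DESeq2 and 3 to 11 with a library left out. Library totals put the median of all names at -0.21 for hasty against WT in control and -0.27 for low N in WT.

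With a pseudocount of 10, the miR169a arm ratio gave 0.66 (exact permutation p = 0.045) for hasty minus WT and -0.11 (exact permutation p = 0.745) for low N minus control, the miR169f arm ratio -0.96 (exact permutation p = 0.045) for hasty minus WT, and miR169c over miR169j 0.98 (exact permutation p = 0.020) at low N. With a library left out, the arm ratio of hasty minus WT ran from 0.54 to 1.22 for miR169a and from -0.0367 to 0.45 for miR169b, and that of low N minus control from -0.50 to 0.0052 for miR169b, whose ratio in the WT libraries of replicate 3 is set by the pseudocount. Without replicate 2 of WT at low N, the miR169a arm ratio gave 1.22 (exact permutation p = 0.015) for hasty minus WT. Hasty minus WT ran from -0.0465 to 0.21 for miR169a-5p over miR169c and from 0.42 to 0.99 for miR169c over miR169j, and low N minus control from 0.63 to 1.20 for the second of these pairs. The values of 0.99 (exact permutation p = 0.010) and 1.20 (exact permutation p = 0.005) came without replicate 3 of hasty at low N. With miR169h, miR169i or miR169l in place of miR169j, miR169d over it gave -0.28, 0.0485 and 0.34 for hasty minus WT, and miR169c over it gave 1.44, 1.77 and 2.06 for hasty minus WT and 1.60, 1.44 and 1.24 for low N minus control. The members' 5p counts over those of miR169h to miR169n had a mean log2 ratio of 2.05 in hasty at low N and 0.71 in hasty control. In WT it was 1.86 at low N and -0.67 in control. Names of 1 sequence were averaged, so the miR169b-5p zeros in replicate 3 of both WT groups entered these values. The WT ratios became 1.21 and -1.37 with the highest of the names, and 2.18 and 0.26 with miR169j, miR169k, miR169m and miR169n only. A pseudocount of 10 gave 1.74 in WT at low N. 

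Changes of sign among uncalled members were as follows, on the log2 scale. For hasty against WT at low N, miR169b-3p gave -0.20 without both WT libraries of replicate 3 and -0.20 to 0.83 with a library left out, and miR169a-3p -0.84 to 0.18. For low N in WT, miR169d and miR169e gave 0.0021 (median-of-ratios), 0.00078 (DESeq2) and 0.014 (without both WT libraries of replicate 3), miR169f-5p 0.0025 and miR169g-5p 0.0020 in the last of these, and miR169a-3p 0.023 (median-of-ratios) and 0.032 (DESeq2). With a library left out they ran from -0.19 to 0.0545 for miR169d and miR169e, -0.20 to 0.0457 for miR169f-5p, -0.20 to 0.0509 for miR169g-5p, -0.64 to 0.38 for miR169a-3p and -0.62 to 0.54 for miR169b-3p. For low N in hasty, miR169a-5p gave 0.0021 with no filter, and miR169f-3p -0.82 to 0.0375 with a library left out. The interaction of miR169b-5p (-0.0043) gave 0.0769 (median-of-ratios), 0.28 (library totals), 0.23 (no filter), 0.12 (at least 10 CPM), 0.12 (mean of the names), 0.28 (highest), 0.31 (known names only), 0.079 (DESeq2) and -0.59 to 0.58 with a library left out, and that of miR169c -0.16 to 0.45. Causes were not tested. The counts of miR169f-3p and miR169a-3p, at most 32 per library, limit what can be said of them.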

Other observations

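Counts of 0 in a library whose group had 50 or more in both other libraries were found for 1 to 9 names per library, 64 in all over the 12 libraries. The arms of miR169b are among them, at 0 in replicate 3 of WT control and, for miR169b-3p, in replicate 3 of WT at low N.

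Between names that share 1 mature sequence, WT control held round offsets. miR169h exceeded miR169k by 1000, 1000 and 600 counts, miR169i exceeded miR169j by 1000, 999 and 999 counts, and miR169l exceeded miR169k by 1019, 1020 and 1021 counts. In WT at low N, miR169i exceeded miR169j by 100, 0 and 3 counts, and miR169l exceeded miR169k by 101, 102 and 2 counts. Among miR169d to miR169g no difference exceeded 8 counts.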
